A study of Mus musculus with 39 samples.

Results

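DNA replication genes are described here as 44 genes whose products license, open and copy replication origins, or supply the fork with nucleotides, measured in whole liver of male mice given phenobarbital. They were chosen by name, as a curated list, and each was represented by the Affymetrix mouse probe set annotated to that gene alone that had the highest mean signal. All 44 had such a probe set, among 18193 genes in all. The filter on dim genes, which asked for a signal above the array's median on at least 4 of 39 arrays, kept 43 of them among 12580 genes. Tyms, thymidylate synthase, did not pass.

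The mice were male B6C3F1/Crl, 29 to 32 days old on arrival, and were kept for 5 days before the study began. Treated mice drank water holding 0.05% (w/v) phenobarbital, a barbiturate that switches on hepatic drug-metabolising genes through the nuclear receptor CAR, and controls did not receive it. Livers were taken after 1, 7, 28 or 91 days, with 4 arrays for the day 1 controls and 5 for each of the other groups. Controls and treated mice shared strain, sex and arrival age, so that both groups aged together from day 1 to day 91. Nothing in the labels says whether arrays of a group came from different animals, and the p-values rest on the spread among arrays, which may be technical in part.

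Replication in eukaryotic cells begins with licensing. The origin recognition complex, CDC6 and CDT1 load the ring-shaped MCM helicase onto DNA in G1, and MCM10, CDC45 and the GINS complex turn it into an active helicase in S phase. DNA polymerase alpha with primase starts each strand, and polymerases epsilon and delta, held on DNA by the PCNA clamp, extend it. FEN1 and DNA ligase I join the Okazaki fragments. Many of these genes are transcribed at the G1/S boundary by E2F factors. Adult hepatocytes are mostly quiescent, while the liver of a young mouse still grows, and phenobarbital is known to drive a transient burst of hepatocyte division in rodents.

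The promoters of the members that hold the letters of an E2F site are shown because the genes moved together at day 1. RefSeq's table of GRCm38.p6 promoters, which spans 250 bases before to 50 after each start, held 35 of the 44 members. TTTGGCGC, TTTCCCGC, TTTGGCGG or TTTCCCGG on either strand was found in 15 of the 35 (42.9%), against 1024 of all 27025 genes in the table (3.79%). CCAAT on either strand was found in 21 of 35 members (60%) against 41.1% of all genes, and both kinds in 9 members (25.7%) against 1.44%. The E2F letters and CCAAT overlapped in 0 member promoters and in 3 of 32851 promoters in all. The 6 promoters below are printed from 170 bases before to 30 after the start, and they belong to the members called at day 1 with the smallest p-values among those whose E2F letters lie within that stretch. The letters of Cdt1 and Tcf19 lie outside it, beginning at positions 33 and -199. The sequences run 5′ to 3′ on the gene's strand, with the E2F letters and each CCAAT or ATTGG in capitals.
Mcm7, chr5:138171854-138172053, minus strand: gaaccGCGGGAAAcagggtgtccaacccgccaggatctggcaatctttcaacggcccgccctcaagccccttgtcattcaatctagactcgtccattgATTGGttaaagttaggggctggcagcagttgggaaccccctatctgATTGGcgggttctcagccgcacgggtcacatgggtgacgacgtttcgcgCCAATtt
Pole2, chr12:69228161-69228360, minus strand: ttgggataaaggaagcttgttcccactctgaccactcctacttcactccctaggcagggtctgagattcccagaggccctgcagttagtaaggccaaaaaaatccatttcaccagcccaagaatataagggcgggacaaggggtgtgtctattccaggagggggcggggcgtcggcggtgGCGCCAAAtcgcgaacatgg
Cdc6, chr11:98907981-98908180, plus strand: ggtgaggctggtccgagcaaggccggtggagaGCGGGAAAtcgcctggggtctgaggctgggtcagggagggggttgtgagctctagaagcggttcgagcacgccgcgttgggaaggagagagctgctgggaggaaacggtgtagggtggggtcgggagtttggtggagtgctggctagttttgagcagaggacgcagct
Lig1, chr7:13278656-13278855, plus strand: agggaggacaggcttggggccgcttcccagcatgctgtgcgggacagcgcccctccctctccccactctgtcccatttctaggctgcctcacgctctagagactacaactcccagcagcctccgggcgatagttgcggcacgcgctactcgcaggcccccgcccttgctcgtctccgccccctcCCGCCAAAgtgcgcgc
Mcm3, chr1:20820283-20820482, minus strand: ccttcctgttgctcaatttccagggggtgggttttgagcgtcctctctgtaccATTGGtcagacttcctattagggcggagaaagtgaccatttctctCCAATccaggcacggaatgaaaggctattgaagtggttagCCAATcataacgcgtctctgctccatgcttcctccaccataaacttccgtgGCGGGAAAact
Rfc3, chr5:151651179-151651378, minus strand: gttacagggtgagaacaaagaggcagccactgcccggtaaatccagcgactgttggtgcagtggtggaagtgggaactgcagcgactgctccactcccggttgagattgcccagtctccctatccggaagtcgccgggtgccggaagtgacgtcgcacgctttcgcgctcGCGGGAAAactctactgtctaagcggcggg
In Mcm7 the letters GCGGGAAA began at position -165 from the start, and 3 CCAAT boxes followed, whereas in Mcm3 the same 8 letters lay 20 bases after it, with 3 CCAAT boxes upstream. Cdc6 held its match at position -138. The matches of Pole2 (GCGCCAAA), Lig1 (CCGCCAAA) and Rfc3 (GCGGGAAA) lay at positions 11, 15 and 1 after the start, and these printed stretches held 0 CCAAT boxes. A match of letters is a description and does not show that a factor binds there.

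Signals are log2 values throughout, and differences are in log2 units, so that 1 unit is a 2-fold difference. A gene was called higher or lower at a Benjamini-Hochberg adjusted p under 0.05 from limma, fitted on all tested genes. Cyp2b10, the drug-metabolising enzyme most used to check a phenobarbital response, was higher by 6.21, 6.36, 6.90 and 5.64 at days 1, 7, 28 and 91. Hepatocyte markers such as Alb were bright on every array, and the mean over the hepatocyte list was between 14.0 and 14.2. Some arrays stood apart. Replicate 4 of the day 1 controls had a mean over 23 mitosis genes of 5.96, against 7.47 to 7.69 in the other day 1 controls, and the day 1 controls spread from 8.89 to 11.8 in their mean over 10 male-biased adult liver genes. Replicate 3 of the treated day 1 group had exocrine pancreas markers at a mean of 11.0, against 6.67 to 6.83 on the other treated day 1 arrays. Replicate 3 of the treated day 7 group had Kupffer cell markers at 10.9 and neutrophil markers at 8.81, against at most 9.75 and 5.29 on the other treated day 7 arrays. The hybridization spike-ins averaged 9.33 to 10.0 on the day 7 control arrays and 10.5 to 10.8 on the treated day 7 arrays, and at day 1 they averaged 10.7 to 10.8 on control and 10.3 to 10.6 on treated arrays, without overlap. A sign of RNA quality, the 3' minus 5' difference (averaged over control probe sets for Actb and Gapdh), was 0.516 to 0.806 in controls and 0.422 to 0.503 in treated mice of day 28, and 0.457 to 0.584 and 0.397 to 0.513 at day 1.

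At day 1 the replication genes were higher with phenobarbital almost throughout the fork. Of 43 tested members, 40 were higher, against 15.8% of all tested genes, and 1 was lower, against 16.7%. Their median difference was 0.84, against 0.01 over all genes, and 17 members were higher by 2-fold or more. In 38 members no treated array overlapped a control array, which was so for 25.9% of all genes. The 3 members that were not higher were Mcm10, Cdc45 and Orc1. With the spike-in level or the 3' minus 5' difference as a covariate, 40 members were higher and 1 lower in each case, with medians of 0.92 and 0.87. In whole liver, more cells of a type and more RNA per cell cannot be told apart.

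**Figure D1:**
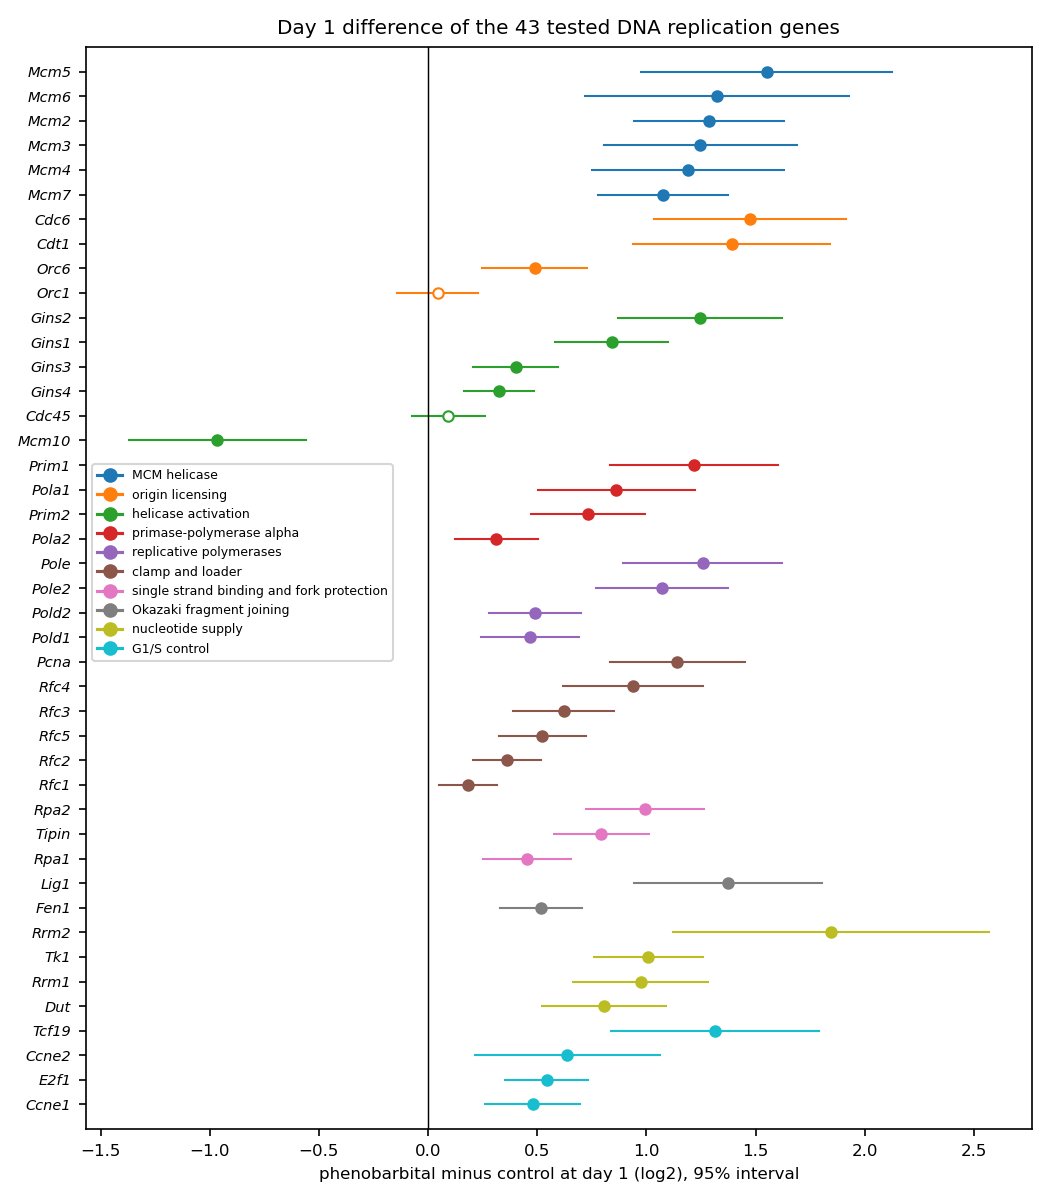
Log2 difference between phenobarbital and control at day 1 for each tested replication gene, grouped by role. Points are the fitted differences, bars their 95% intervals, the vertical line marks no difference, and the open points, Orc1 and Cdc45, were not called. Rrm2 is furthest to the right at 1.85, and Mcm10 is the member below 0 that was called, at -0.96.

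By role, the 6 MCM helicase subunits had the highest median, 1.27, with a range from 1.08 to 1.55. The 4 nucleotide supply genes tested had a median of 0.99, and the origin licensing genes and the 2 Okazaki joining genes both had 0.94. Primase and polymerase alpha stood at 0.80, the single-strand binding and fork genes at 0.79, and the replicative polymerases at 0.78. The G1/S control genes had a median of 0.59, the clamp and its loader 0.57, and the helicase activation genes 0.36. The groups hold 2 to 6 genes each, and the differences between their medians were not tested.

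The MCM helicase was raised as a whole at day 1, with 6 of 6 subunits called. Mcm7, a subunit of the ring, read 9.70, 10.13, 9.94 and 9.51 on the control arrays of day 1 and 10.84, 11.03, 10.96, 10.82 and 10.84 on the treated arrays. The groups did not overlap, and the treated arrays lay within 10.82 to 11.03. The difference was 1.08 (SE 0.15), or 2.11-fold, with an adjusted p of 1.44e-06. Mcm2, which carries a long acidic tail that binds histones, read 8.68, 9.43, 8.76 and 8.66 on the control arrays and 9.94, 10.49, 10.66, 9.74 and 10.02 on the treated ones. Replicate 2 was the highest control array, and the lowest treated array still exceeded it. The difference of 1.29 (SE 0.17, 2.44-fold) had the smallest adjusted p of the group, 8.08e-07.

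Mcm5 had the largest difference of the ring. Its control arrays read 8.67, 9.11, 9.09 and 7.91 and its treated arrays 10.09, 10.55, 10.43, 10.05 and 10.09, which is 1.55 (SE 0.28, 2.93-fold, adjusted p = 8.13e-05). Replicate 4 was the lowest control array and replicate 2 the highest in both groups. The remaining subunits, Mcm3, Mcm4 and Mcm6, were higher by 1.25, 1.19 and 1.32, and none of them overlapped between the groups. At days 7, 28 and 91 none of the 6 subunits was called (0, 1 and 0 of them had an unadjusted p under 0.05 in limma), and their medians were -0.08, 0.34 and -0.22. Other probe sets of the ring were called lower at these days. Mcm7 probe set 1416030_a_at fell by 0.43 at day 7 (adjusted p = 0.0337) and by 0.69 at day 91 (adjusted p = 0.000922), Mcm7 probe set 1439269_x_at by 0.38 at day 28 (adjusted p = 0.0266) and Mcm3 probe set 1426652_at by 0.61 at day 91 (adjusted p = 0.0199).

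The 6 subunits had all fallen by day 28 in controls. Mcm7 had control means of 9.55 ± 0.33, 9.03 ± 0.10 and 9.01 ± 0.05 at days 7, 28 and 91 and treated means of 9.45 ± 0.44, 8.72 ± 0.12 and 8.75 ± 0.13 (mean ± SD, n = 5 in each of these groups and below). Mcm2 stood at 8.68 ± 0.14, 7.86 ± 0.18 and 8.0 ± 0.26 in controls and 8.72 ± 0.35, 8.18 ± 0.20 and 8.20 ± 0.11 with phenobarbital. Mcm5 went through a wider range, from 8.49 ± 0.60 at day 7 to 6.30 ± 0.09 at day 28 in controls and from 8.26 ± 0.83 to 6.77 ± 0.30 with phenobarbital. For Mcm7 and Mcm5 the SD was larger at day 7 than at day 28 in both groups, and for Mcm2 in treated mice but not in controls.

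Of 4 origin licensing genes, 3 were higher at day 1. Cdt1, the factor that brings the MCM ring to origins, read 8.44, 9.33, 8.99 and 8.24 in controls of day 1 and 9.92, 10.21, 10.51, 9.90 and 10.16 with phenobarbital. Replicate 4 of the controls was the lowest array and the groups did not overlap. Cdt1 rose by 1.39 (SE 0.22, 2.62-fold, adjusted p = 1.37e-05). Cdc6, the ATPase that works beside it, read 4.62, 5.75, 5.11 and 4.34 in controls and 6.29, 6.56, 7.18, 5.90 and 6.23 with phenobarbital, with no overlap. Its difference was 1.47 (SE 0.22, 2.78-fold, adjusted p = 4.53e-06). Cdc6 exceeded the array's median only on the 5 treated arrays of day 1, so that it was tested because it was high in that group.

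Orc6, a subunit of the origin recognition complex, overlapped between the groups at day 1. It read 7.12, 7.57, 7.44 and 7.17 in controls and 7.65, 8.0, 8.05, 7.57 and 7.81 with phenobarbital, and control replicate 2 alone reached the lowest treated array. It was higher by 0.49 (SE 0.12, adjusted p = 0.00173). Orc1, the ATPase subunit of the same complex, read 7.0, 7.16, 6.89 and 7.07 in controls and 7.23, 7.04, 7.16, 6.94 and 7.01 with phenobarbital, and the arrays of the groups intermingled. Its difference was 0.04, with a 95% interval from -0.14 to 0.23 and an adjusted p of 0.745. The other Orc1 probe set, 1422663_at, was dim and did not pass the filter. The day 1 means of 1422663_at were 4.34 in controls and 4.66 with phenobarbital.

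Later, Cdt1 had control means of 8.40 ± 0.42, 6.83 ± 0.16 and 6.82 ± 0.15 at days 7, 28 and 91 and treated means of 8.36 ± 0.60, 6.83 ± 0.22 and 6.75 ± 0.26. Cdc6 was at 4.39 ± 0.23, 3.58 ± 0.27 and 3.55 ± 0.14 in controls and 4.33 ± 0.40, 3.79 ± 0.24 and 3.65 ± 0.10 with phenobarbital. Orc1 moved little, from 7.24 ± 0.06 to 7.07 ± 0.17 in controls and from 7.25 ± 0.12 to 7.17 ± 0.09 with phenobarbital between days 7 and 91. Orc6 was the licensing gene called at a later day. It read 7.11, 6.83, 6.92, 6.80 and 6.73 in controls of day 28 and 6.42, 6.33, 6.58, 6.23 and 6.51 with phenobarbital, every treated array below every control, and was lower by 0.46 (SE 0.11, adjusted p = 0.00216). At days 7 and 91 its control means were 6.94 ± 0.22 and 6.69 ± 0.16 and its treated means 6.89 ± 0.17 and 6.68 ± 0.18.

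The helicase activation group held the member that went the other way. Mcm10, which binds the helicase as it fires, read 10.35, 9.82, 9.69 and 10.45 in controls of day 1 and 8.86, 9.06, 9.28, 9.33 and 9.02 with phenobarbital, every treated array below every control. It fell by 0.96 (SE 0.20), 1.95-fold lower, with an adjusted p of 0.000362. This came from probe set 1433408_a_at. It averaged 10.29 over all arrays, against 5.39 for the Mcm10 probe set 1433407_at and 4.47 for 1454244_at, which did not pass the filter. At day 1, 1433407_at differed by -0.32 (adjusted p = 0.0928). The day 1 means of 1454244_at were 4.39 in controls and 4.54 with phenobarbital. The direction was the same in both tested probe sets, but a call was made in the chosen one alone.

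Gins2 and Gins1, subunits of the GINS complex, were raised most in the group. Gins2 read 6.97, 7.33, 7.30 and 6.29 in controls and 8.02, 8.26, 8.20, 8.47 and 8.13 with phenobarbital, with no overlap, and was higher by 1.25 (SE 0.19, 2.37-fold, adjusted p = 5.19e-06). Gins1 read 7.69, 7.99, 8.17 and 7.64 and 8.71, 8.82, 8.67, 8.67 and 8.70, and its treated arrays were close together, between 8.67 and 8.82. Gins1 rose by 0.84 (SE 0.13, 1.79-fold, adjusted p = 6.31e-06). Gins4 read 8.37, 8.31, 8.37 and 8.31 and 8.61, 8.79, 8.56, 8.79 and 8.58, all treated arrays above all controls, a difference of 0.33 (SE 0.08, adjusted p = 0.00179). Gins3 was higher by 0.40.

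Cdc45, which joins GINS and MCM in the active helicase, was not called. It read 6.81, 6.93, 7.01 and 7.01 in controls and 7.10, 7.08, 7.06, 6.77 and 7.15 with phenobarbital, with replicate 4 the lowest treated array and below every control. The difference was 0.09, with a 95% interval from -0.07 to 0.26 and an adjusted p of 0.404. Another probe set of Cdc45, 1416575_at, was higher by 0.72 (adjusted p = 0.000875), so the probe sets of this gene disagreed.

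In later groups, Mcm10 had control means of 10.42 ± 0.13, 10.92 ± 0.28 and 11.09 ± 0.21 and treated means of 9.45 ± 0.51, 10.74 ± 0.31 and 10.49 ± 0.36. Gins2 stood at 6.65 ± 0.46, 5.81 ± 0.14 and 6.04 ± 0.17 in controls and at 6.61 ± 0.40, 6.04 ± 0.12 and 6.16 ± 0.13 with phenobarbital. Gins1 was at 7.66 ± 0.28 and 7.17 ± 0.21 in controls and 7.42 ± 0.26 and 6.93 ± 0.15 with phenobarbital at days 7 and 91. At day 28 Gins1 read 7.22, 7.03, 7.08, 7.08 and 7.04 in controls and 6.75, 6.96, 6.85, 6.54 and 6.59 with phenobarbital, with no overlap. Gins4 means at days 7 and 28 were 8.44 ± 0.15 and 8.27 ± 0.12 in controls and 8.30 ± 0.11 and 8.19 ± 0.08 with phenobarbital.

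The enzymes that start and extend the strands were higher at day 1 in 8 of 8. Prim1, the catalytic subunit of primase, read 8.53, 8.68, 8.74 and 8.09 in controls and 9.56, 10.09, 9.70, 9.68 and 9.60 with phenobarbital, the groups not overlapping, and was higher by 1.22 (SE 0.19, 2.32-fold, adjusted p = 1.02e-05). Prim2, the larger primase subunit, and Pola1 and Pola2, subunits of polymerase alpha, rose by 0.73, 0.86 and 0.31. Pole, the catalytic subunit of polymerase epsilon, read 6.20, 6.90, 6.77 and 6.03 in controls and 7.95, 7.96, 7.64, 7.33 and 7.77 with phenobarbital, with no overlap. Its difference was 1.26 (SE 0.18, 2.39-fold, adjusted p = 2.76e-06). Pole2, the second subunit of that enzyme, read 6.18, 6.75, 6.64 and 5.92 and 7.34, 7.71, 7.49, 7.23 and 7.47 in the same order and was higher by 1.07 (SE 0.15, adjusted p = 1.81e-06). Pold2, an accessory subunit of polymerase delta, read 8.16, 8.59, 8.35 and 8.33 and 8.94, 8.85, 8.81, 8.80 and 8.83, its control replicate 2 coming nearest to the treated arrays. It rose by 0.49 (SE 0.10, adjusted p = 0.000432), and Pold1, the catalytic subunit of the same enzyme, rose by 0.47.

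At later days Prim1 had means of 7.23 ± 0.20 and 7.27 ± 0.18 in controls and 7.12 ± 0.13 and 6.99 ± 0.14 with phenobarbital at days 28 and 91. Pole stood at 6.39 ± 0.32 and 5.52 ± 0.12 in controls and 6.28 ± 0.43 and 5.30 ± 0.13 with phenobarbital at days 7 and 28. Pole2 was at 6.17 ± 0.19, 5.51 ± 0.28 and 5.30 ± 0.22 in controls and 6.25 ± 0.28, 5.69 ± 0.15 and 5.59 ± 0.04 with phenobarbital, and Pold2 at 8.12 ± 0.14 and 8.30 ± 0.19 in controls and 8.31 ± 0.22 and 8.18 ± 0.11 with phenobarbital at days 28 and 91. Pole was above the array median on 20 arrays and Pole2 on 22, against the 4 that the filter asked for. Ccne2, a G1/S control gene, was above it on 9.

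In the clamp and its loader, 6 of 6 genes were called higher at day 1 by their chosen probe sets. For Rfc1, given below, other probe sets did not bear this out. Pcna, the sliding clamp that holds polymerases on DNA, read 10.99, 11.12, 11.09 and 10.47 in controls and 12.11, 12.37, 12.08, 11.78 and 11.96 with phenobarbital, with no overlap. It was higher by 1.14 (SE 0.15, 2.21-fold, adjusted p = 9.23e-07). The replication factor C subunits load it. Rfc5 read 8.36, 8.34, 8.50 and 8.43 and 8.92, 8.97, 8.77, 9.10 and 8.90, a difference of 0.52 (SE 0.10, adjusted p = 0.000119), and Rfc2 read 8.11, 7.90, 8.12 and 8.04 and 8.36, 8.54, 8.41, 8.40 and 8.31, a difference of 0.36 (SE 0.08, adjusted p = 0.000433). In both, the treated arrays exceeded all controls. Rfc3 and Rfc4 were higher by 0.62 and 0.94.

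Rfc1, the large subunit of the loader, was the weakest of the higher calls. Its arrays read 8.54, 8.48, 8.68 and 8.56 in controls and 8.72, 8.87, 8.74, 8.62 and 8.79 with phenobarbital and overlapped, and the difference was 0.18 (SE 0.07, adjusted p = 0.0306). Another Rfc1 probe set, 1449050_at, differed by 0.04 (adjusted p = 0.760), and a further one, 1451920_a_at, fell by 1.41 (adjusted p = 0.000229), so the direction for Rfc1 depends on the probe set. Leaving out control replicate 1, 2 or 4 or treated replicate 2 or 5 of day 1 moved the adjusted p of the chosen probe set to 0.0667, 0.103, 0.0569, 0.0892 or 0.0620. Pcna stood at 10.70 ± 0.33, 10.34 ± 0.09 and 10.46 ± 0.09 in controls and 10.82 ± 0.42, 10.28 ± 0.10 and 10.18 ± 0.09 with phenobarbital later on. Rfc5 had means of 7.95 ± 0.13 and 7.79 ± 0.22 in controls and treated mice at day 28, and Rfc2 of 7.85 ± 0.12 and 7.86 ± 0.07.

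Replication protein A coats single-stranded DNA, and Tipin is part of the complex that stabilises the fork. Rpa2, the middle subunit of replication protein A, read 6.98, 7.08, 7.29 and 6.65 in controls and 7.92, 8.14, 8.12, 7.85 and 7.93 with phenobarbital and rose by 0.99 (SE 0.13, 1.99-fold, adjusted p = 1.10e-06). Rpa1, the large subunit, read 10.38, 10.67, 10.56 and 10.28 and 10.83, 11.06, 10.95, 10.90 and 10.89 and rose by 0.45 (SE 0.10, adjusted p = 0.000675). Tipin read 8.59, 8.90, 8.70 and 8.64 and 9.32, 9.62, 9.56, 9.56 and 9.45 and rose by 0.79 (SE 0.11, adjusted p = 1.24e-06). In all 3 genes the treated arrays lay above every control array. Later means of Rpa1 were 10.24 ± 0.22, 9.98 ± 0.04 and 10.10 ± 0.14 in controls and 10.22 ± 0.19, 9.92 ± 0.18 and 10.08 ± 0.11 with phenobarbital, and those of Rpa2 were 6.75 ± 0.26, 6.46 ± 0.12 and 6.64 ± 0.27 and 6.71 ± 0.23, 6.46 ± 0.21 and 6.43 ± 0.10. Tipin had means of 8.49 ± 0.19 and 7.80 ± 0.15 in controls and 8.30 ± 0.19 and 7.67 ± 0.14 with phenobarbital at days 7 and 28.

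Of the Okazaki joining genes, Lig1, DNA ligase I, read 7.41, 7.97, 7.71 and 7.0 in controls and 8.42, 9.20, 9.10, 8.98 and 8.77 with phenobarbital. The highest control array remained below the lowest treated one, and the difference was 1.37 (SE 0.21, 2.59-fold, adjusted p = 9.0e-06). Fen1, the flap endonuclease, read 9.91, 9.84, 9.76 and 9.65 and 10.30, 10.38, 10.35, 10.19 and 10.31, its treated arrays above all controls, a difference of 0.52 (SE 0.09, adjusted p = 6.54e-05). Another Fen1 probe set, 1421731_a_at, was higher by 1.21 at day 1 (adjusted p = 5.20e-06). The probe sets had opposite signs afterwards: the chosen one differed by 0.26, 0.51 and 0.21 at days 7, 28 and 91, and the other by -0.39, -0.06 and -0.55 (adjusted p = 0.110, 0.835 and 0.0216). Lig1 had later means of 7.33 ± 0.40, 6.40 ± 0.21 and 6.73 ± 0.06 in controls and 7.24 ± 0.58, 6.41 ± 0.28 and 6.43 ± 0.09 with phenobarbital.

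Nucleotide supply contained the largest change of all members. Rrm2, the small subunit of ribonucleotide reductase, read 9.10, 9.43, 9.64 and 8.29 in controls and 10.95, 11.21, 11.02, 10.69 and 10.95 with phenobarbital. Control replicate 4 was the lowest and the treated arrays spanned 10.69 to 11.21, above every control. The difference was 1.85 (SE 0.36, 3.59-fold, adjusted p = 0.000158), and the other Rrm2 probe sets gave 1.89 and 2.13. Tk1, the cytosolic thymidine kinase, read 8.68, 8.64, 8.77 and 8.52 and 9.63, 9.77, 9.46, 9.83 and 9.64, a tighter separation. It rose by 1.01 (SE 0.12, 2.01-fold) and had the smallest adjusted p of any member, 2.21e-07. Rrm1, the large reductase subunit, and Dut, the dUTPase that keeps uracil out of DNA, rose by 0.97 and 0.81. Tyms read 3.93, 3.94, 3.85 and 3.88 in controls and 3.96, 4.03, 3.99, 4.23 and 4.0 with phenobarbital at day 1, below the array median on all of these arrays, and was not tested.

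Later means of Tk1 were 8.75 ± 0.09, 8.14 ± 0.17 and 8.10 ± 0.16 in controls and 8.69 ± 0.31, 8.32 ± 0.19 and 8.18 ± 0.23 with phenobarbital. Rrm2 stood at 8.46 ± 0.82, 6.68 ± 0.35 and 7.02 ± 0.60 in controls and 8.43 ± 0.89, 6.64 ± 0.41 and 7.06 ± 0.26 with phenobarbital. The SD of Rrm2 at day 7 was the largest of any member in either group.

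The G1/S control genes were higher at day 1 in 4 of 4. Tcf19, a transcription factor expressed at the G1/S boundary, read 7.85, 8.23, 8.51 and 7.65 in controls and 9.41, 9.63, 9.38, 9.13 and 9.31 with phenobarbital and rose by 1.31 (SE 0.24, 2.49-fold, adjusted p = 6.37e-05). E2f1, a member of the E2F family, read 6.46, 6.44, 6.45 and 6.40 and 7.06, 7.11, 7.10, 6.71 and 6.93 and rose by 0.54 (SE 0.09, adjusted p = 3.62e-05). Neither gene overlapped between the groups. Ccne1, cyclin E1, rose by 0.48. Ccne2, cyclin E2, overlapped, with 5.83, 6.37, 6.38 and 5.60 in controls and 6.47, 7.03, 7.25, 6.48 and 6.19 with phenobarbital, and its difference of 0.64 (SE 0.21) had an adjusted p of 0.0178. Without control replicate 1 or 4 or treated replicate 2 or 3 of day 1 the adjusted p of Ccne2 was 0.0586, 0.0925, 0.0533 or 0.0664. Later means of Tcf19 were 7.88 ± 0.60, 6.51 ± 0.15 and 6.65 ± 0.21 in controls and 7.67 ± 0.64, 6.10 ± 0.17 and 6.13 ± 0.27 with phenobarbital. Those of E2f1 were 6.55 ± 0.13, 6.27 ± 0.16 and 6.45 ± 0.10 and 6.45 ± 0.12, 6.29 ± 0.15 and 6.24 ± 0.17.

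**Figure D2:**
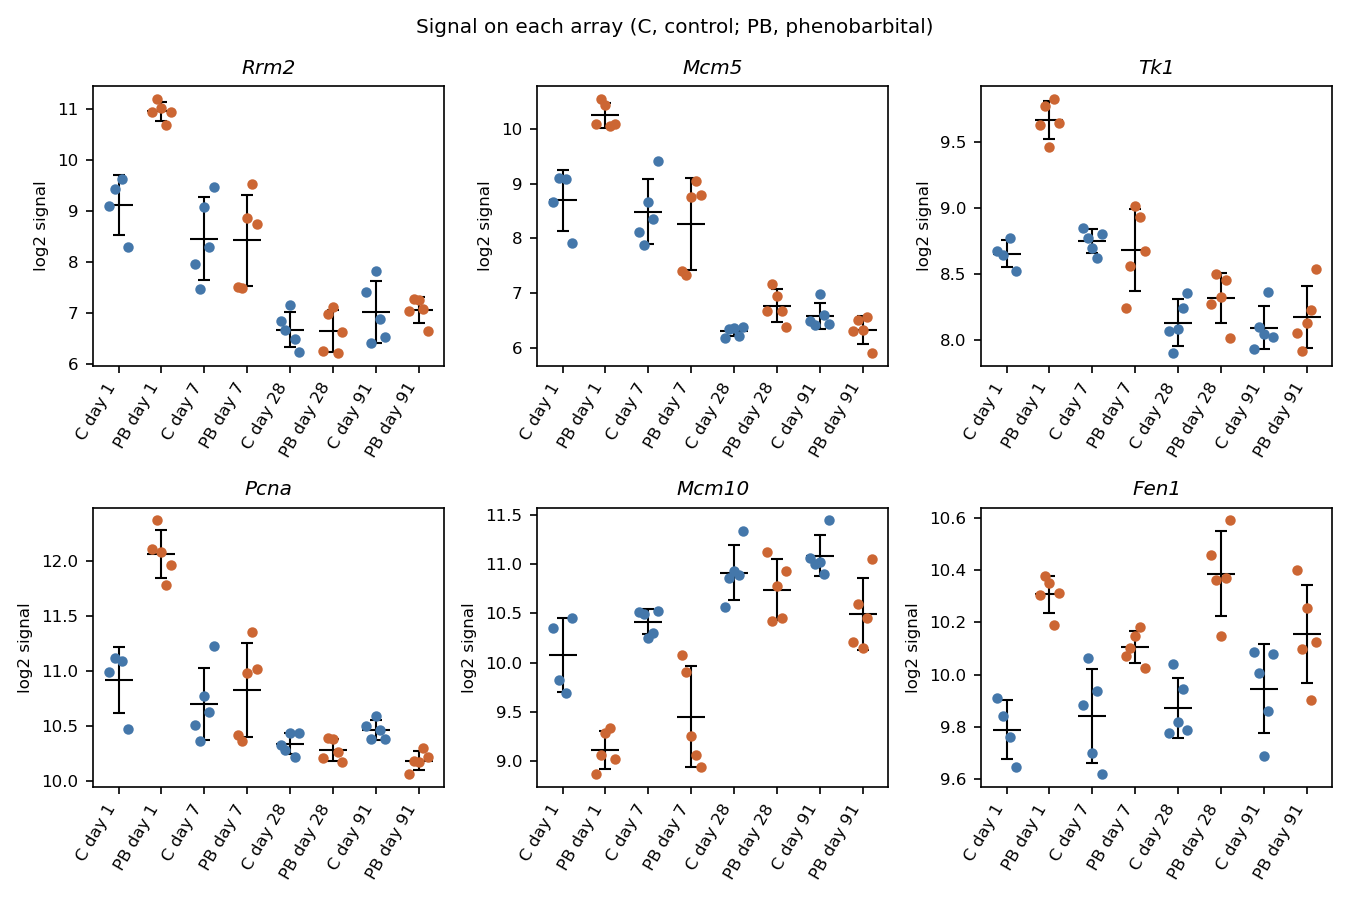
Log2 signal of Rrm2, Mcm5, Tk1, Pcna, Mcm10 and Fen1 on every array, by day and group. Points are arrays and bars the group mean with its SD. In Rrm2 the treated arrays of day 1 (10.7 to 11.2) lie above all others, and in Mcm10 they lie below every day 1 control.

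Within a group, the members tended to be high or low on the same arrays. The mean over all 44 members was 7.75, 8.03, 8.0 and 7.59 on the control arrays of day 1 and 8.56, 8.79, 8.74, 8.52 and 8.57 on the treated ones, so that the groups did not overlap. Control replicate 4 was the lowest control array for 28 of 44 members and replicate 2 the highest for 22. Of the treated arrays, replicate 2 was the highest for 26 members and replicate 4 the lowest for 24. The median SD of members was 0.249 among the day 1 controls, against 0.119 for all tested genes, and 0.167 among the treated arrays, against 0.120. Without control replicate 4, 38 members remained higher and 1 lower, with a median difference of 0.77.

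**Figure D3:**
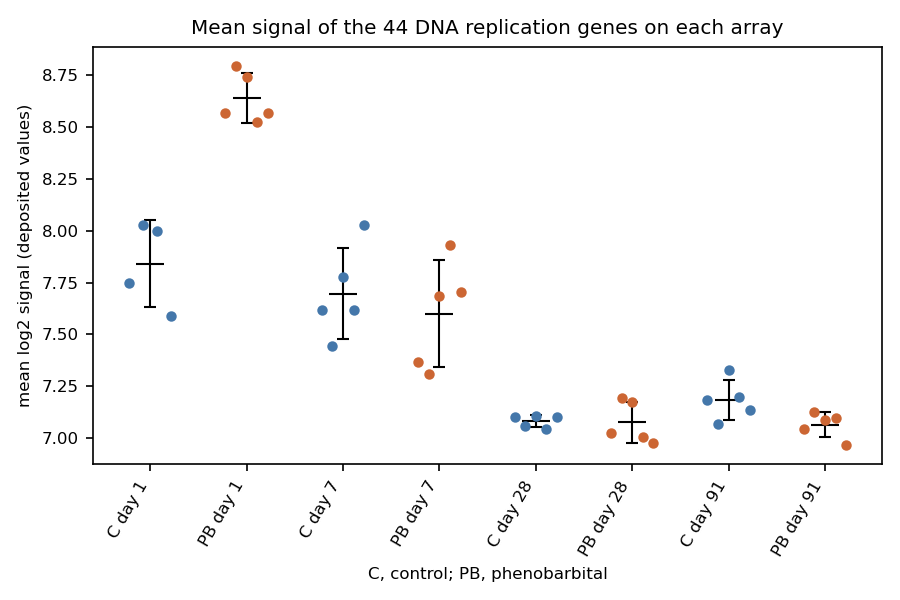
Mean log2 signal over the 44 replication genes on each array, by day and group, with the group mean as a horizontal bar and its SD as a vertical one. The treated arrays of day 1 lie between 8.52 and 8.79, above all other arrays, and all arrays of days 28 and 91 lie between 6.97 and 7.33.

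Mitosis genes and sex-biased liver genes moved at the same time. Of 23 mitosis genes, 21 were higher at day 1 and 0 lower, with a median of 1.18, and Mki67, Top2a and Cdk1 rose by 1.40, 1.38 and 1.57. Their mean was 7.89 to 8.61 on the treated arrays and 5.96 to 7.69 on the control arrays. Of the mitosis genes, Tpx2 was above the array's median on 7 arrays, Melk on 8 and Aurkb, Bub1, Kif11 and Cenpe on 9. The treated day 1 group holds 5 arrays, so Melk may have been tested because it was high in that group. Of 10 male-biased adult liver genes, 4 were lower and 0 higher, with a median of -0.84, and their mean was 9.27 to 9.92 on treated arrays and 8.89 to 11.8 on controls. With the male-biased mean as a covariate, 38 members were higher, 1 lower, and the median was 0.69. Among cell type markers, Kupffer, neutrophil, lymphocyte, stellate and cholangiocyte lists had 0 genes called in either direction at day 1, of 7, 2, 5, 7 and 3 tested, and at an unadjusted p under 0.05 in limma these lists had 0, 0, 0, 1 and 0. Single calls were made in the hepatocyte list (1 of 7, lower), the endothelial list (1 of 6, lower), the erythroid list (1 of 2, higher) and the exocrine pancreas list (1 of 2, higher). In limma 21 mitosis and 7 male-biased genes had an unadjusted p under 0.05 in either direction. Of all tested genes, 15.8% were called higher and 16.7% lower at day 1. The part of these lists in the result was not tested.

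Other replication and S-phase genes, listed by function and not members, were also counted. Of 45 listed, 43 had a probe set and 41 were tested, and at day 1 27 were higher and 0 lower, with 33 at an unadjusted p under 0.05 in limma and a median of 0.32. The 5 of smallest p were Uhrf1, which guides DNA methylation to new strands (1.62), Gmnn, the inhibitor of CDT1 (0.94), the histone chaperones Chaf1b (1.28) and Asf1b (1.03), and E2f2, an E2F family member (0.84). At days 7, 28 and 91 the same list had 4, 3 and 2 genes higher and 3, 5 and 3 lower. Of all tested genes, 15.8%, 5.64%, 11.2% and 4.62% were higher at days 1, 7, 28 and 91. The shares lower were 16.7%, 11.4%, 18.1% and 16.1%. Within the members, the 15 with E2F letters in the promoter were all higher at day 1. Their median was 1.08, with a range from 0.31 to 1.55. Cdc6, among these, was tested only because it was high in the treated day 1 group. The 20 with a promoter but without those letters had 16 of 19 tested higher. Their median was 0.54, with a range from -0.96 to 1.85. The 9 with no promoter in the table had 9 of 9 higher, a median of 0.79 and a range from 0.33 to 1.26. These ranges overlapped, and the differences between the sets were not tested.

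At day 7 few members were called. Phenobarbital raised 1 member, against 5.64% of all genes, and lowered 5, against 11.4%, and the median was -0.06 against -0.05. Groups did not overlap in 3 members, against 11.2% of all genes. Mcm10 read 10.52, 10.50, 10.25, 10.30 and 10.52 in controls and 10.08, 9.91, 9.25, 9.06 and 8.94 with phenobarbital, with no overlap, and fell by 0.97 (SE 0.19, adjusted p = 0.000462). Rfc5 read 8.47, 8.35, 8.64, 8.37 and 8.88 and 8.06, 8.04, 8.18, 8.32 and 8.11, again without overlap, and fell by 0.40 (SE 0.09, adjusted p = 0.00270). Rfc2 fell by 0.27 (SE 0.07, adjusted p = 0.00793) and Pold2 by 0.33 (SE 0.10, adjusted p = 0.0176), with arrays of 8.23, 7.93, 8.28, 8.29 and 8.32 against 7.79, 7.92, 8.14, 8.02 and 7.82 and 8.76, 8.54, 8.64, 8.49 and 8.34 against 7.98, 8.20, 8.37, 8.30 and 8.27, which overlapped in both. Another Mcm10 probe set, 1433407_at, differed by -0.25 (adjusted p = 0.244) at day 7, so the call rests on the chosen probe set. With the mean of all probe sets Rfc2 was at -0.16 (adjusted p = 0.109), and with a fit on the compared arrays alone its adjusted p was 0.0750. Without control replicate 1 the adjusted p of Pold2 was 0.0651, and without treated replicate 1 it was 0.0658.

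The calls of Prim1 and Fen1 at day 7 also turned on single arrays. Prim1 read 8.09, 7.98, 8.67, 8.31 and 9.02 in controls and 7.45, 7.27, 8.0, 8.50 and 8.33 with phenobarbital, overlapping widely, and fell by 0.51 (SE 0.18, adjusted p = 0.0464). Leaving out control replicate 3, 4 or 5 moved that adjusted p to 0.118, 0.0521 or 0.174, and leaving out treated replicate 1, 2 or 3 moved it to 0.149, 0.183 or 0.0541. Leaving out single arrays of other days could move it to between 0.0500 and 0.0512. Quantile normalization moved it to 0.0626 and centring arrays on their median to 0.0806. Fen1 read 9.88, 10.06, 9.70, 9.94 and 9.62 and 10.07, 10.10, 10.15, 10.18 and 10.03, higher by 0.26 (SE 0.09, adjusted p = 0.0333). Without control replicate 3 or 5 the adjusted p of Fen1 was 0.0932 or 0.110, and without treated replicate 2, 3 or 4 it was 0.0530, 0.0589 or 0.0806. With quantile normalization that of Fen1 was 0.0648. Adjusting for the spike-in level left 1 lower member at day 7, Rfc5. Mcm10, Prim1 and Rfc2 were then at -0.81, -0.62 and -0.27 (adjusted p = 0.0604, 0.135 and 0.106), and Pold2 was at -0.05 (adjusted p = 0.846). The treated arrays of day 7 were spread widely, with a median SD over members of 0.277 against 0.120 for all genes, and replicate 4 was the highest of them for 31 of 44 members and replicate 2 the lowest for 26.

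At day 28 phenobarbital raised 1 member, against 11.2% of all genes, and lowered 2, against 18.1%. The median was -0.02 for the members and for all genes, and groups did not overlap in 6 members, against 15.4% of all genes. Fen1 read 9.78, 10.04, 9.82, 9.94 and 9.79 in controls and 10.46, 10.36, 10.15, 10.37 and 10.59 with phenobarbital, all treated arrays higher, a difference of 0.51 (SE 0.09, adjusted p = 5.77e-05). Orc6 and Gins1 were the lower calls, and Gins1 fell by 0.35 (SE 0.12, adjusted p = 0.0245). Without control replicate 1 of day 28 the adjusted p of Gins1 was 0.0632, and without treated replicate 4 or 5 it was 0.0728 or 0.0625. With quantile normalization it was 0.0776. The 3' minus 5' difference did not overlap between the day 28 groups, and with it as a covariate Orc6 was at -0.40 (adjusted p = 0.0597) and Gins1 at -0.28 (adjusted p = 0.232). With the mean of all probe sets Gins1 was at -0.23 (adjusted p = 0.0696) and Fen1 at 0.23 (adjusted p = 0.0508). Some members without a call at day 28 had another probe set that was called lower. Among them were Prim1 1449061_a_at (-0.59, adjusted p = 0.0154) and Rfc1 1451920_a_at (-1.62, adjusted p = 3.23e-05). Rfc2 1457669_x_at (-0.32, adjusted p = 0.0130) and Rfc4 1438161_s_at (-0.55, adjusted p = 0.0385) were others.

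At day 91 no member was higher, against 4.62% of all genes, and 6 were lower, against 16.1%, with a median of -0.14 against -0.07 for all genes. At an unadjusted p under 0.05 in limma, 12 members differed in either direction. The groups did not overlap in 8 members, against 11.3% of all genes. Gins4 read 8.42, 8.52, 8.73, 8.51 and 8.55 in controls and 8.08, 8.31, 8.01, 8.15 and 8.34 with phenobarbital and fell by 0.37 (SE 0.07, adjusted p = 0.000771). Rfc2 read 7.86, 7.91, 8.10, 8.08 and 8.08 and 7.77, 7.66, 7.65, 7.68 and 7.68 and fell by 0.32 (SE 0.07, adjusted p = 0.00226), and Rfc5 read 8.12, 8.06, 8.09, 8.05 and 8.09 and 7.72, 7.90, 7.61, 7.91 and 7.57 and fell by 0.34 (SE 0.09, adjusted p = 0.00878). These 3 genes had every treated array below every control. The other Rfc2 probe sets, 1457669_x_at and 1457638_x_at, differed by -0.06 each (adjusted p = 0.695 and 0.619), and with the mean of all probe sets Rfc2 was at -0.15 (adjusted p = 0.110). Rpa2 and Rfc3 were not called at day 91 by their chosen probe sets. Their probe sets 1454011_a_at and 1432538_a_at differed by -0.61 (adjusted p = 0.00128) and -0.44 (adjusted p = 0.0246).

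Pole, Tipin and Mcm10 completed the calls of day 91, and each lost its call on leaving out single arrays. Pole read 5.49, 5.59, 6.10, 5.75 and 5.72 in controls and 5.42, 5.39, 5.14, 5.36 and 5.0 with phenobarbital, without overlap, and fell by 0.47 (SE 0.17, adjusted p = 0.0446), and its adjusted p was 0.0549, 0.124, 0.0778 or 0.0717 without control replicate 2, 3, 4 or 5 and 0.0527, 0.0935, 0.0557 or 0.109 without treated replicate 1, 3, 4 or 5. Tipin read 8.12, 8.24, 8.20, 8.07 and 7.86 and 7.87, 7.95, 7.54, 7.58 and 7.95 and fell by 0.32 (SE 0.10, adjusted p = 0.0230), and its adjusted p was 0.0667 without control replicate 2 and 0.0856 or 0.0723 without treated replicate 3 or 4. Mcm10 read 11.07, 11.0, 11.02, 10.90 and 11.45 and 10.21, 10.60, 10.15, 10.45 and 11.06 and fell by 0.60 (SE 0.19, adjusted p = 0.0231), and its adjusted p was 0.0770 without control replicate 5 and 0.0699 or 0.0764 without treated replicate 1 or 3. The Mcm10 probe set 1433407_at differed by -0.07 at day 91 (adjusted p = 0.774). In Tipin and Mcm10 the groups overlapped. With quantile normalization the adjusted p was 0.0773 for Pole and 0.0614 for Tipin. With arrays centred on their median it was 0.0868 and 0.0645.

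**Figure D4:**
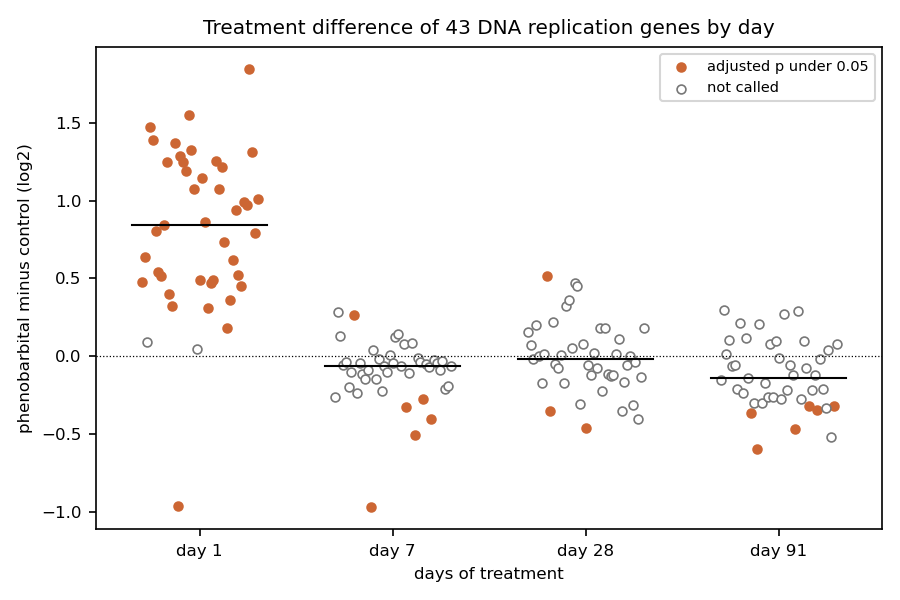
Log2 difference between phenobarbital and control for each tested replication gene at days 1, 7, 28 and 91, 1 point per gene and day. Filled points are genes called at an adjusted p under 0.05, open points are not called, the horizontal bar is the median of the day and the dotted line marks no difference. At day 1 all points but Mcm10 lie above 0, with the median at 0.84, and the later medians are -0.06, -0.02 and -0.14.

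The change in the phenobarbital effect was itself tested. From day 1 to day 7 the effect became lower in 36 members, against 13.1% of all genes, and higher in 0, against 8.16%, with a median change of -0.99 against -0.05. From day 1 to day 28 it became lower in 28, against 2.68%, and higher in 0, against 0.572%, with a median of -0.89 against -0.02. From day 1 to day 91 it became lower in 37, against 19.4%, and higher in 0, against 11.1%, with a median of -0.87 against -0.08. In limma, 38, 39 and 39 members had an unadjusted p under 0.05 in either direction in these 3 tests. The tests share the day 1 arrays, so they are not independent of each other or of the day 1 comparison. Rrm2 changed most between days 1 and 7 (-1.88) and between days 1 and 28 (-1.88), and Tcf19 between days 1 and 91 (-1.83). For Mcm10 the effect at day 7 minus that at day 1 was -0.0047.

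Replication transcripts fell in control livers over the study, chiefly between days 7 and 28. From day 1 to day 7, 1 member was higher, against 18.9% of all genes, and 3 were lower, against 16.4%, with a median of -0.18 against 0.04. Ccne1 was the higher one (0.35), and Ccne2, Cdc6 and Orc6 fell by 1.20, 0.57 and 0.39. This comparison shares the day 1 controls with the day 1 phenobarbital effect. The count of lower members turned on single arrays, being 12 without day 7 control replicate 5, 8 without day 1 control replicate 4 and 1 without day 1 control replicate 2.

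From day 7 to day 28, 31 members were lower in controls, against 26.5% of all genes, and 1 was higher, against 19.8%, with a median of -0.52 against -0.05. In the helicase Mcm6 fell by 2.23, Mcm5 by 2.19 and Mcm3 by 1.62. Rrm2 fell by 1.79, Cdt1 by 1.57, Tcf19 by 1.37 and Prim1 by 1.18. Mcm10 was the exception, higher by 0.50. The spike-ins averaged 9.33 to 10.0 on the day 7 control arrays and 10.6 to 11.3 on those of day 28, without overlap. Adjusting for the spike-in level left 19 lower members. From day 28 to day 91, 2 were higher, against 8.43%, and 0 lower, against 5.13%, with 4 members at an unadjusted p under 0.05 and a median of 0.12 against 0.03. The higher ones were Tipin (0.30) and Gins4 (0.28).

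In treated livers the members fell mostly between days 1 and 7. From day 1 to day 7, 39 members were lower, against 16.6% of all genes, and 0 higher, against 9.8%, with a median of -1.19 against 0.01, and 41 had an unadjusted p under 0.05 in either direction in limma. From day 7 to day 28, 27 were lower, against 11.9%, and 2 higher, against 9.51%, with a median of -0.54 against -0.01. The higher ones were Mcm10 (1.29) and Fen1 (0.28). With the male-biased gene mean as a covariate, 5 members were lower in that interval. From day 28 to day 91, 0 members were lower, against 7.97%, and 0 higher, against 9.24%, with 4 at an unadjusted p under 0.05 and a median of -0.03 for the members and for all genes.

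Other transcripts changed over the same interval. From day 7 to day 28, 7 of 7 Kupffer cell markers fell in controls, with a median of -0.81, and 7 of 7 in treated mice, with a median of -0.88. Their mean went from 9.50 to 9.98 on day 7 control arrays to 8.47 to 8.91 at day 28. Of the other lists, 2 of 2 neutrophil, 2 of 5 lymphocyte, 4 of 6 endothelial, 3 of 7 stellate and 2 of 3 cholangiocyte markers fell in controls, and 1 cholangiocyte and 3 of 7 hepatocyte markers rose. In controls 5 of 10 male-biased genes rose, and 22 of 23 mitosis genes fell. Among treated mice 7 of 10 male-biased genes rose and 14 of 23 mitosis genes fell. Of all tested genes, 26.5% were lower and 19.8% higher in controls over this interval, and 11.9% and 9.51% in treated mice. The 3' minus 5' difference was 0.424 to 0.514 in controls of day 7 and 0.516 to 0.806 at day 28, and with it as a covariate 27 members were lower in controls over the interval. The part of these lists in the fall of the replication genes was not tested.

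**Figure D5:**
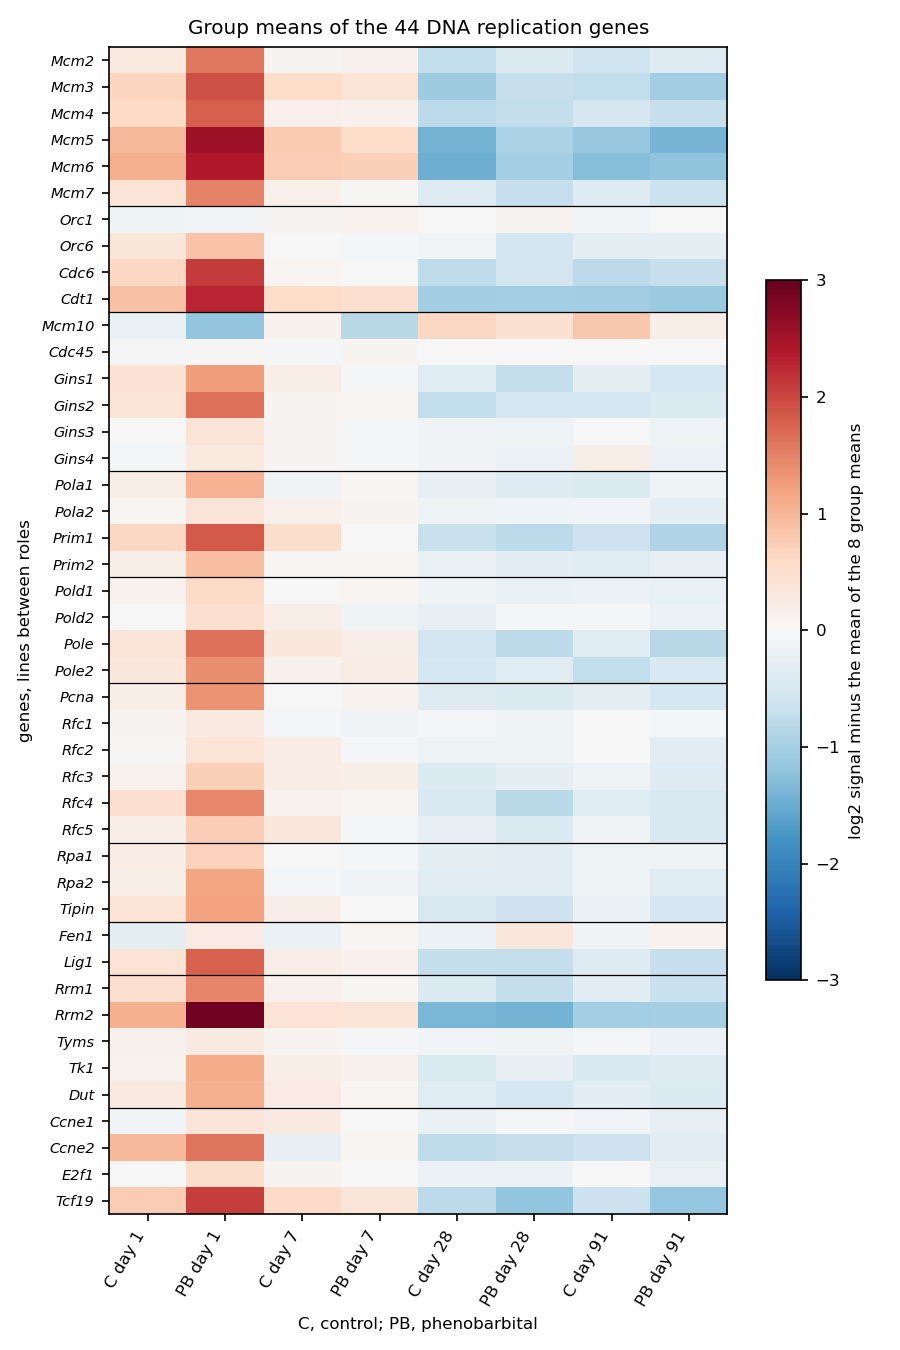
Mean log2 signal of each replication gene in the 8 groups, shown as the difference from that gene's mean over the groups, with genes in rows grouped by role. Treated mice of day 1 have the highest mean in 40 of 44 genes, and 40 genes have their lowest mean at day 28 or 91.

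Across all groups, 40 of 44 members had their highest mean in the treated day 1 group, against 14.5% of all 18193 genes, and 40 had their lowest at day 28 or 91, against 47.9%. In 30 members every treated day 1 array was above all other 34 arrays of the study, against 2.03% of all genes. In 39 members the treated mean was above the day 1 control mean at day 1 and below it at day 28, against 13.9%. The per-array means of the members fell within 7.05 to 7.11 for controls and 6.98 to 7.19 for treated mice at day 28, and within 7.07 to 7.33 and 6.97 to 7.12 at day 91. By then the median SD of members was between 0.145 and 0.174 in the 4 groups, against 0.114 to 0.143 for all genes.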

How the data were processed

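RNA from mouse liver was measured on 39 Affymetrix mouse arrays. The title number of day 28 control replicate 2 lies outside the range of the others. The deposited values are log2 signals per probe set, and GCOS is named per the submitters' processing notes. The normalization between arrays is not given in the sources used here. The labels' treatment protocol speaks of 28 days although samples reach day 91, and the extraction protocol also names kidney.

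The 64 control probe sets were set aside, and probe sets with 1 gene symbol (34945 of 45101) were reduced to 18193 genes by the highest mean signal. Genes above the array's median on at least 4 arrays (12580) were fitted with 1 mean per group in limma 3.58.1 (R 4.3.3), with a trend in the prior variance. P-values were adjusted by the Benjamini-Hochberg method over all of them, and the pipeline was tested on simulated data. The number of arrays limits the precision. The members, gene lists and tests were chosen with earlier results of these data known. Every member is named by role. Per-group values are given for the member of highest signal and the member of smallest p at day 1 in each role, for members called on more than 1 day or against the majority, and, beyond that rule, for Rrm2, Mcm5, Orc1, Cdc45, Rfc1 and Ccne2, chosen after their values were seen. Promoters are RefSeq's for GRCm38.p6. Alternatives changed the normalization, filter, probe set rule, variance model, covariates and arrays used.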

Additional observations from a re-analysis of the deposited data

Results flagged for a closer look

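Of 360 groups of arrays looked at, 1 for each member or array mean in each group, 17 had an array farther from the rest than the Dixon limit, and chance gives about 1 in 20. For Mcm2 these were control replicate 2 of day 1 at 9.425 (others 8.656 to 8.763) and control replicate 3 of day 91 at 8.457. For Gins1 they were treated replicate 2 of day 1 at 8.825, control replicate 1 of day 28 at 7.223 and treated replicate 1 of day 91 at 6.675. For Cdc45 they were treated replicate 4 of day 1 at 6.773 (others 7.061 to 7.147) and control replicate 3 of day 28 at 6.930, and for Rfc2 control replicate 2 of day 7 at 7.928 and treated replicate 1 of day 91 at 7.768. Treated replicate 2 of day 1 read 10.09 for Prim1, and treated replicate 4 of day 1 read 4.226 for Tyms. At day 28 treated replicate 1 read 7.924 for Pold2, treated replicate 5 read 7.389 for Rfc5, control replicate 5 read 6.057 for Rfc4 (others 6.621 to 6.722) and control replicate 4 read 6.254 for Rpa2. At day 91 treated replicate 4 read 7.021 for Orc1 and control replicate 2 read 6.284 for Tcf19.

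The phenobarbital effect differed between day 1 and later days by a test of the difference in limma. It was lower in 36 members at day 7, 28 at day 28 and 37 at day 91. Rrm2 had the widest change at day 7 (-1.877, SE 0.49, adjusted p = 0.00612) and at day 28 (-1.883, adjusted p = 0.0247), and Tcf19 at day 91 (-1.830, SE 0.32, adjusted p = 0.000135).

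Of the probe sets that were not chosen for a member, 27 of the 34 tested were higher at day 1. The Rfc1 probe set 1451920_a_at was the 1 that was lower. The shares of all tested probe sets that were higher or lower were not counted. The 15.8% and 16.7% given above are for 1 probe set per gene.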

How the results depend on the processing

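The 40 higher members of day 1 ranged from 30 (of 31 tested, with the filter at the 75th percentile) to 40 under the 13 other settings and from 38 to 40 with each array left out, and every one of these counts lies within 1.5 times the main one. The same holds for the lower counts of the 3 changes in effect and of the treated fall from day 1 to 7. No paired analysis was possible because the labels give no pairing.

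Smaller counts moved, and the cause was not tested. For lower members at day 7 (5), the male-biased covariate gave 9 and the spike-in covariate 1, and single arrays left out gave 3 to 6. At day 28 (2), quantile normalization gave 1, the male-biased covariate 6, the 3' minus 5' covariate 0, the spike-in covariate 1 and only the arrays compared 5, with 1 to 3 on leaving out arrays. At day 91 (6), only the arrays compared gave 10, and leaving out arrays 3 to 7. For controls from day 1 to 7 (3 lower), the mean of all probe sets gave 6, array weights 13, the male-biased covariate 1 and the spike-in covariate 0, with 1 to 12 on leaving out arrays. From day 7 to 28 the spike-in covariate gave 19 in controls (31), and the male-biased covariate 5 in treated mice (27). For controls from day 28 to 91 (2 higher), no filter, the male-biased, the 3' minus 5' and the spike-in covariates each gave 1 and only the arrays compared 0, with 0 to 2 on leaving out arrays. For treated mice from day 28 to 91 (0 lower), array weights and only the arrays compared each gave 1, with 0 to 1 on leaving out arrays.

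With the mean of all probe sets, Rfc1 at day 1 turned to -0.396 (adjusted p = 0.00289) and Fen1 at day 7 to -0.064 (adjusted p = 0.668), while Cdc45 (0.41) and Orc1 (0.18) became higher calls at day 1. Of the single-gene values over all settings, 2898 kept their call or lack of it, 90 lost the call, 2 gained it and 2 reversed. A value called in neither fit counted as kept even where its sign changed. A filter using arrays outside the treated day 1 group, chosen after seeing the data, dropped Cdc6 and left 39 higher and 1 lower of 42. Quantile normalization put the day 1 median of all genes at 0.06 and that of members at 0.92. Dim members such as Tyms, below the array median, are limited by signal over background.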

Other observations

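The 44 members had 95 probe sets annotated to them alone, and 33 members had more than 1. For Mcm5 another probe set, 1415945_at, was higher by 1.71 at day 1, against 1.55 for the chosen one. For Mcm6, 1438852_x_at was higher by 0.89 (adjusted p = 0.0525), against 1.32 for the chosen one. For Mcm10, 1433407_at differed by -0.47 at day 28 (adjusted p = 0.0105), when the chosen probe set was not called. For Ccne1, 1416492_at differed by -0.44 at day 91 (adjusted p = 0.0174), when the chosen one was not called.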
